A study of Arabidopsis thaliana with 6 samples.

Results

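The genes described here are 10 regulators of the shoot that act in 4 protein families: the class I KNOX genes STM (AT1G62360), KNAT1 (AT4G08150), KNAT2 (AT1G70510) and KNAT6 (AT1G23380), the BELL genes PNF (AT2G27990), BLR (AT5G02030) and ATH1 (AT4G32980), the BOP genes BOP1 (AT3G57130) and BOP2 (AT2G41370), and the MYB gene AS1 (AT2G37630). They were chosen by their locus codes, with earlier results of these data known. All 10 were found among the 33602 gene models counted in each library. The data are counts of RNA read pairs from 6 libraries of Arabidopsis thaliana seedlings at Boyes stage 1.02, grown in vitro at 21 °C. Every seedling carried 35S::CUC2-GR, a fusion of the NAC transcription factor CUC2 to the glucocorticoid receptor domain, driven by the broadly active 35S promoter. The 3 Dex libraries are from seedlings in 10 mL of liquid medium that were given 10 µL of dexamethasone 6 h before freezing, and the 3 no_Dex libraries are labelled as having had no treatment. Dexamethasone lets such a fusion enter the nucleus. Whether no_Dex seedlings had a mock treatment is not given in the sources used here, and no line without the transgene was analysed here, so effects of dexamethasone or of handling and effects of CUC2-GR cannot be told apart.

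Class I KNOX proteins keep cells of the shoot meristem undetermined, in part by raising cytokinin and lowering gibberellin there. They bind DNA together with BELL proteins, which also help them enter the nucleus. AS1 acts with AS2 in young leaves to keep KNAT1, KNAT2 and KNAT6 off, and the BOP proteins, which carry BTB and ankyrin domains and bind TGA factors, act at the base of lateral organs. CUC genes mark the boundaries where these programmes meet, and CUC activity is known to be needed for STM expression in the embryo.

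KNOX and BELL proteins share a homeodomain with 3 extra residues between its first and second helix, of which proline, tyrosine and proline are typical. Translation of the TAIR10.1 coding sequences found this triplet once in each of the 7 KNOX and BELL members and in none of BOP1, BOP2 and AS1. The coding stretches of 45 bases around it are printed because they show what ties the 7 genes together and how far they have diverged. Each is the spliced coding strand, 5′ to 3′, with the codons of the triplet in capitals, and in all 7 genes the stretch is interrupted by an intron in the genome.
STM: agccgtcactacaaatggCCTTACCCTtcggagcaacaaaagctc
KNAT1: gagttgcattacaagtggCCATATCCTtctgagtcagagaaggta
KNAT2: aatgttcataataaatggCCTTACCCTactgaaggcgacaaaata
KNAT6: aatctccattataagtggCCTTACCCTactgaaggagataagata
PNF: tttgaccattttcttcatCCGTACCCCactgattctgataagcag
BLR: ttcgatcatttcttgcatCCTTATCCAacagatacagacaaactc
ATH1: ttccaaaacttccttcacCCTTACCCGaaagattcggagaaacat
In TAIR10.1 these lie, introns included, at chr1:23058991-23059663 (minus strand) for STM, chr4:5148161-5148888 (minus) for KNAT1, chr1:26581869-26582004 (plus) for KNAT2 and chr1:8297643-8297776 (minus) for KNAT6. Those of the BELL genes lie at chr2:11922345-11922485 (minus) for PNF, chr5:397555-397953 (plus) for BLR and chr4:15915472-15915608 (minus) for ATH1. Global alignments of the proteins were scored over aligned residues only, leaving out residues opposite gaps. On that measure KNAT2 and KNAT6 were 76.1% identical (236 of 310 residues) and BOP1 and BOP2 87.0% (402 of 462). STM and KNAT1 were 53.0% identical (188 of 355) and PNF and BLR 50.5% (232 of 459). The PNF and BLR proteins have 584 and 575 residues, so their identity over the whole proteins is lower. The longest run of identical coding bases was 41 between KNAT2 and KNAT6 and 32 between BOP1 and BOP2. The authors removed reads with a second hit as good as the first, per the file headers. Reads short enough to lie wholly within such runs could therefore be missing from these genes. Read length was not compared with the runs, and whether any reads were lost is not known.

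The libraries held 26161582 to 29481253 counted pairs each. CPM here is the number of pairs per 1e6 pairs of the library size after TMM scaling, which evens out differences in composition between libraries. Across genes, not independent of each other, log2 CPM correlated at 0.994 or 0.995 within no_Dex and between Dex replicates 2 and 3, but 0.988 and 0.987 between Dex replicate 1 and the other Dex libraries. Values without Dex replicate 1 are therefore given for KNAT1, BLR and AS1 and for the counts of called genes. Those of other genes moved too and are not all given. Markers of photosynthetic cells (13218 to 15047 summed CPM in no_Dex) and of roots (85.8 to 87.0 in no_Dex and 61.9 to 65.6 in Dex) were present, as the seedling label implies. The photosynthetic sum was 7857 CPM in Dex replicate 1 but 12309 and 11976 CPM in Dex replicates 2 and 3, which lay closer to no_Dex and still below it. Of 7 photosynthetic markers 1 (LHCB1.3) fell and none rose, and of 6 root markers 2 (SHR and AGL12) fell and none rose. Over all tested genes 8.4% fell and 5.99% rose. LHCB1.3 went from a mean of 7211 CPM in no_Dex to 4402 CPM in Dex, and AGL12 from 21.1 to 5.94 CPM. RBCS1A and RBCS3B (log2 fold changes, Dex minus no_Dex, of -0.0089 and 0.0653) and PLT1 and PLT2 (-0.0122 and 0.4495) were not called. The remaining markers of these lists were not called either, and all had negative values. These were LHCB2.1 (-0.40), RCA (-0.39), CA1 (-0.56) and PSBO1 (-0.27), and in the root list SCR (-0.17) and WOX5 (-0.68). The median was -0.39 for the photosynthetic markers and -0.21 for the root markers. Of 4 markers of shoot stem cells, WUS had no pair in any library, CLV3 had at most 1 pair and UFO at most 2, and CLV1 alone was tested and fell (summed CPM 79.8 to 94.96 in no_Dex and 50.6 to 64.4 in Dex). None of 5 markers of dividing cells was called by edgeR, DESeq2 or limma-voom or had an unadjusted p under 0.05, with sums of 113.9 to 135.6 CPM in no_Dex and of 107.9, 147.1 and 139.6 CPM in Dex replicates 1 to 3. The part of these marker differences in the results below was not tested.

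Levels between genes were compared as pairs per kilobase of gene model per 1e6 pairs. AS1 stood highest in no_Dex, at 18.98 ± 2.104 (SD, n = 3), and apart from the next gene. KNAT1 (8.96 ± 0.522) and STM (7.42 ± 0.936) followed with overlapping ranges, and then BLR (6.14 ± 0.267), BOP2 (5.83 ± 0.558) and KNAT6 (5.52 ± 0.377), each overlapping its neighbour. ATH1 (4.18 ± 0.685) lay below these without overlap. KNAT2 (1.52 ± 0.386) and PNF (1.12 ± 0.0803) overlapped each other, and BOP1 (0.772 ± 0.205) was lowest. The BOP1 model of 1404 bases holds coding sequence only, while the others include untranslated bases, so its level per length is on a different footing. By percentile among the 21344 genes tested, AS1 ranked at 64.4, above the median tested gene. The other members ranked below the median, from KNAT1 at 42.2 and STM at 37.1 down to BOP1 at 5.72. In bulk seedlings, fewer cells that express a gene and less RNA per cell cannot be told apart.

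**Figure D1:**
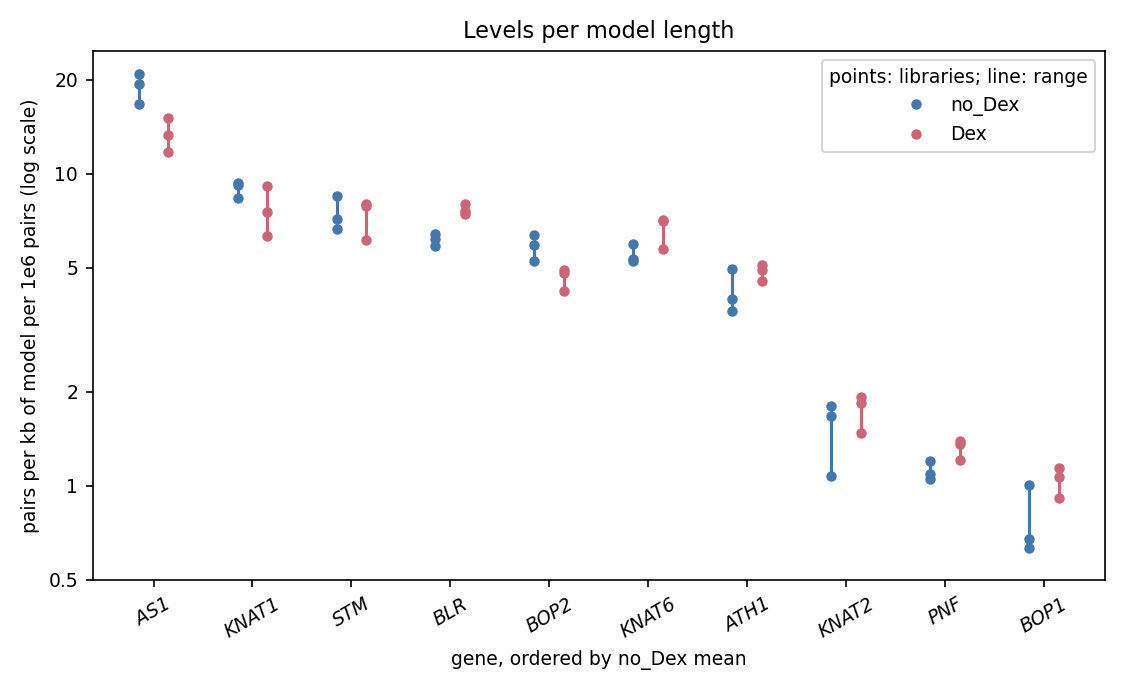
Level of each gene as pairs per kilobase of model per 1e6 pairs, on a log axis, with 1 point per library and a line over the range of each group (blue no_Dex, red Dex). AS1 is highest in both groups and BOP1 lowest, and in Dex BLR (7.67) moves level with KNAT1 (7.66).

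In Dex the order per length changed in its middle. BLR (7.67 ± 0.297), KNAT1 (7.66 ± 1.41), STM (7.33 ± 1.04) and KNAT6 (6.63 ± 0.779) each overlapped its neighbour, and BOP2 (4.65 ± 0.384) stood below ATH1 (4.84 ± 0.292) with overlap. The ends of the order were as in no_Dex, with AS1 at 13.4 ± 1.68 and BOP1 at 1.04 ± 0.115.

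Of the 10 regulators, BLR rose and AS1 fell with dexamethasone, and the other 8 did not pass the test. All 10 passed the filter on low counts, with 26 to 877 pairs per library. Of all 21344 tested genes, 14.4% were called in either direction (Benjamini-Hochberg adjusted p under 0.05 in edgeR), 5.99% higher and 8.4% lower, so 2 called of 10 is near the background. The median log2 fold change of the 10 was 0.21, against 0.0079 over all tested genes. In 4 of the 10 (PNF, BLR, BOP2 and AS1) the Dex values were all above or all below the no_Dex values, as they were in 36.3% of all tested genes. Within the 3 pairs of libraries with the same replicate number, KNAT6, PNF, BLR, ATH1 and BOP1 were higher in Dex in every pair and BOP2 and AS1 lower in every pair. These are 7 of the 10, where 55.2% of all tested genes moved one way in all 3 pairs, and STM, KNAT1 and KNAT2 moved both ways. Leaving out 1 library moved these counts: leaving out any of 5 libraries ended the call of BLR, and any of 3 that of AS1.

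**Figure D2:**
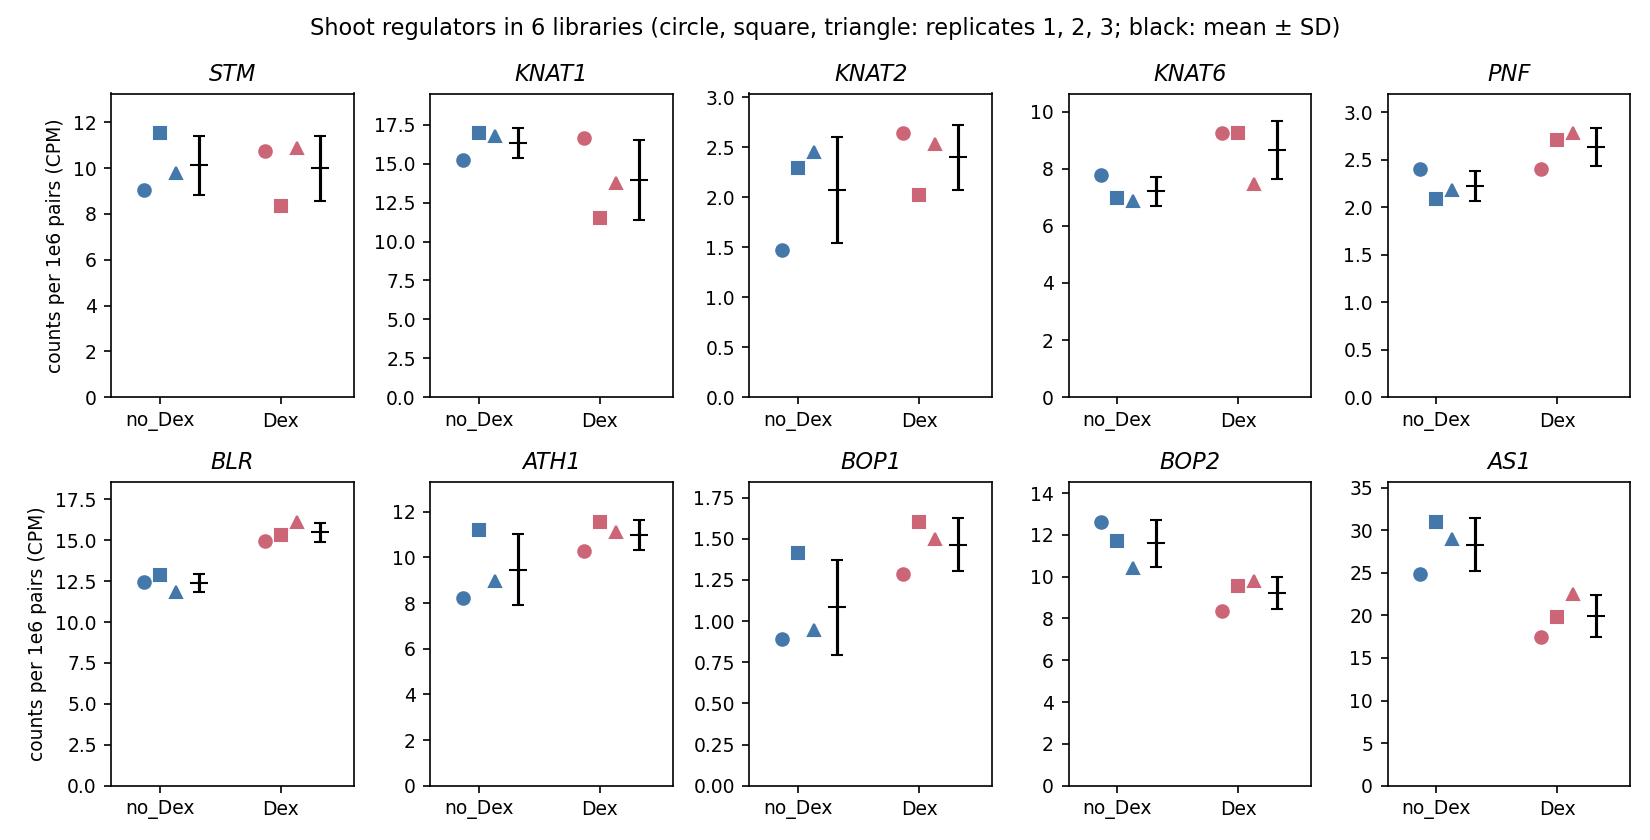
CPM of each gene in the 6 libraries, with an axis from 0 in each panel, points for libraries (circle, square and triangle for replicates 1, 2 and 3) and black bars for mean ± SD. The Dex points of BLR (14.98 to 16.1) lie above all no_Dex points and those of AS1 (17.5 to 22.5) below them, while STM overlaps.

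Among the class I KNOX genes none was called by edgeR, DESeq2 or limma-voom, and 1 of 4 (KNAT6) had an unadjusted p under 0.05 in edgeR. STM (chr1:23058582-23062063, minus strand), which founds and maintains the shoot meristem, had 9.04, 11.5 and 9.79 CPM in no_Dex replicates 1 to 3 and 10.7, 8.36 and 10.9 CPM in Dex replicates 1 to 3. The groups overlapped throughout, with both the lowest value in Dex and the highest in no_Dex. Its log2 fold change (Dex minus no_Dex) was -0.016 with a standard error (SE) of 0.13, and the 95% interval from -0.32 to 0.29 bounds a change in either direction (adjusted p by edgeR = 0.953). The sign of this small value turned to 0.086 without no_Dex replicate 2 and to 0.096 without Dex replicate 2.

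KNAT1 (chr4:5147699-5151159, minus strand), also called BREVIPEDICELLUS, which shapes internodes and pedicels, had 15.2, 17.0 and 16.8 CPM in no_Dex and 16.6, 11.5 and 13.8 CPM in Dex. Dex replicates 2 and 3 lay below every no_Dex library, and Dex replicate 1 lay among them. Its log2 fold change was -0.22 (SE 0.13, 95% interval -0.51 to 0.07; adjusted p by edgeR = 0.280). Without Dex replicate 1, the library that stood apart, it was -0.37 and KNAT1 was called lower (adjusted p by edgeR = 0.0198). KNAT1 is thus the member whose call turned on that library. Calls over all tested genes rose in the same fit, to 2339 higher and 2726 lower of 21452, from 1279 and 1792 of 21344. With all 6 libraries and offsets for length and GC content, the log2 fold change of KNAT1 was -0.15 (adjusted p by edgeR = 0.408).

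The close relatives KNAT2 and KNAT6 both had higher means in Dex. KNAT6 (chr1:8297241-8302651, minus strand), which acts with STM in the meristem and at organ boundaries, had 7.77, 6.96 and 6.88 CPM in no_Dex and 9.25, 9.24 and 7.48 CPM in Dex. Dex replicate 3 fell within the no_Dex range and the other Dex libraries stood above it, although each Dex library exceeded the no_Dex library of its number. The log2 fold change of KNAT6 was 0.26 (SE 0.11, 95% interval 0.0043 to 0.52), with an edgeR p of 0.0471 before and 0.160 after adjustment. KNAT2 (chr1:26576486-26582879, plus strand), which AS1 also holds off in leaves, had only 43 to 78 pairs per library, or 1.47, 2.30 and 2.46 CPM in no_Dex and 2.64, 2.02 and 2.53 CPM in Dex. The groups overlapped, and the interval of its log2 fold change (0.21, SE 0.22) ran from -0.29 to 0.71 (adjusted p by edgeR = 0.559).

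KNAT2 made up 15.9%, 24.8% and 26.3% of the pairs of KNAT2 and KNAT6 together in no_Dex and 22.2%, 17.97% and 25.3% in Dex. The exact (Clopper-Pearson) 95% intervals of these shares ran from 11.8% to 20.8% in no_Dex replicate 1, the lowest, and from 21.1% to 32.0% in no_Dex replicate 3, the highest, and cover counting error only. The balance of the pair thus varied as much among the no_Dex libraries as between groups. Summed per length, the 4 class I KNOX genes stood at 22.0, 24.8 and 23.5 in no_Dex and 26.0, 21.0 and 23.1 in Dex, with overlap.

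All 3 BELL members had higher means in Dex, and BLR was called. BLR (chr5:395567-399125, plus strand), also named PENNYWISE, BELLRINGER or REPLUMLESS, is a partner of STM and KNAT1 in stems and meristems. It had 12.4, 12.9 and 11.8 CPM in no_Dex and 14.98, 15.3 and 16.1 CPM in Dex. Every Dex library exceeded every no_Dex library, and the coefficient of variation within groups (4.35% and 3.87%) was below that expected from counting alone (5.31% and 4.81%). BLR rose by 0.32 on the log2 scale (SE 0.07, 95% interval 0.16 to 0.48; adjusted p by edgeR = 0.0212). With 5 libraries the call was kept only without Dex replicate 1 (adjusted p by edgeR = 0.0107), and it was lost without no_Dex replicate 1, 2 or 3 (0.0693, 0.0585 and 0.0838) or Dex replicate 2 or 3 (0.0629 and 0.0710), at log2 fold changes of 0.29 to 0.35.

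PNF (chr2:11921350-11924748, minus strand), POUND-FOOLISH, which acts redundantly with BLR in flowering and inflorescence growth, stood well below BLR per length. PNF had 2.40, 2.09 and 2.18 CPM in no_Dex and 2.41, 2.71 and 2.78 CPM in Dex. The groups did not overlap, though no_Dex replicate 1 and Dex replicate 1 all but touched. The log2 fold change of PNF was 0.24 (SE 0.14, 95% interval -0.08 to 0.57; adjusted p by edgeR = 0.292). Its 59 to 78 pairs per library give a counting error of 12.5% in no_Dex, larger than the 7.20% spread seen.

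ATH1 (chr4:15914670-15918153, minus strand), a BELL gene that acts in the shoot apex on stem growth and flowering time, had 8.22, 11.2 and 8.98 CPM in no_Dex and 10.3, 11.6 and 11.1 CPM in Dex. No_Dex replicate 2 lay among the Dex values and the other no_Dex libraries below them. The log2 fold change was 0.21 (SE 0.12, 95% interval -0.07 to 0.49; adjusted p by edgeR = 0.282). With the replicate number as a block and offsets for length and GC content, ATH1 was called higher at a log2 fold change of 0.35 (adjusted p by edgeR = 0.0376). Per length, BLR took 51.6% to 56.1% of the summed level of the 3 BELL genes in no_Dex and 54.0% to 56.4% in Dex.

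**Figure D3:**
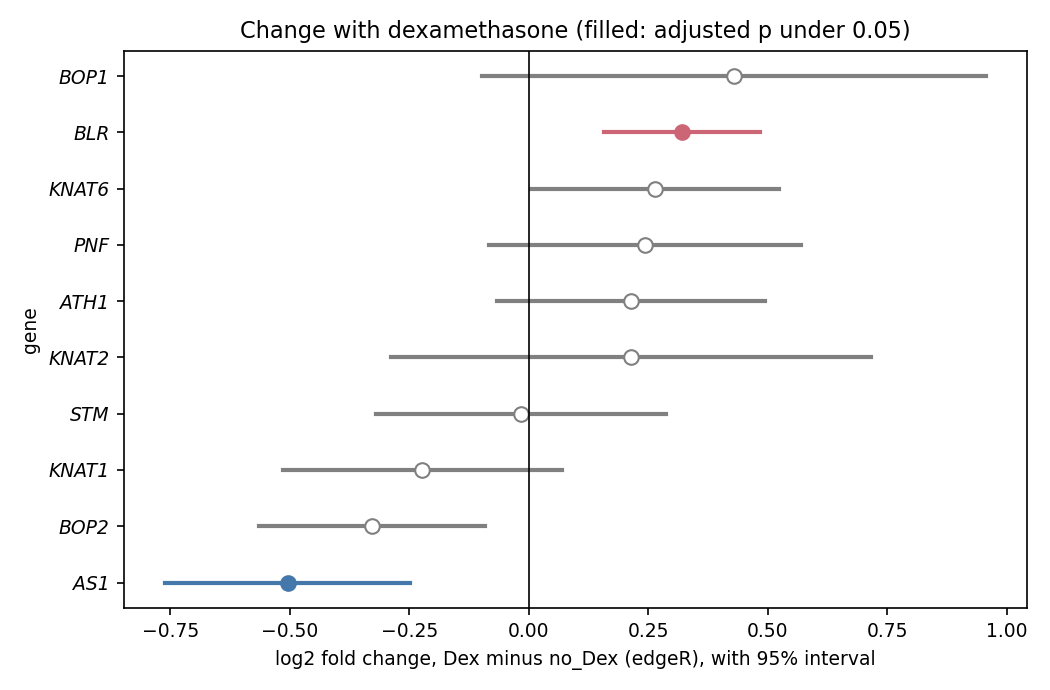
Log2 fold change of each gene, Dex minus no_Dex, from edgeR with its 95% interval, filled where the adjusted p is under 0.05. BLR (0.32) and AS1 (-0.50) are filled, and the intervals of STM, KNAT1, KNAT2, PNF, ATH1 and BOP1 include 0.

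The BOP genes are near-duplicates in protein sequence that differed in level and in the sign of their change, and neither was called by edgeR, DESeq2 or limma-voom, with 1 of 2 (BOP2) at an unadjusted p under 0.05. BOP2 (chr2:17237727-17240609, minus strand), the more abundant, had 12.6, 11.7 and 10.4 CPM in no_Dex and 8.37, 9.55 and 9.80 CPM in Dex. All Dex libraries lay below all no_Dex libraries. The log2 fold change of BOP2 was -0.33 (SE 0.10, 95% interval -0.56 to -0.09), with an edgeR p of 0.0122 before and 0.0697 after adjustment. In TAIR10.1, 395 of its 2174 exonic bases are shared with AT2G41375 on the plus strand, which is not among the gene models counted. The unstranded counts cannot assign reads from such bases to a strand. The counted BOP2 model has 1987 bases, and whether it includes the shared bases was not checked.

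BOP1 (chr3:21147558-21150238, plus strand) rests on 26, 40 and 27 pairs in no_Dex and 38, 42 and 42 pairs in Dex, or 0.890, 1.41 and 0.948 CPM against 1.29, 1.604 and 1.497 CPM. No_Dex replicate 2 lay within the Dex range. The log2 fold change of BOP1 was 0.43 (SE 0.23, 95% interval -0.10 to 0.96; adjusted p by edgeR = 0.251), and counting alone gives an error of 17.96% in no_Dex and 15.7% in Dex. BOP1 made up 6.58%, 10.8% and 8.33% of the pairs of both genes in no_Dex and 13.3%, 14.4% and 13.2% in Dex, so its share was higher in each Dex library than in any no_Dex library. The exact 95% interval of no_Dex replicate 1 (4.34% to 9.50%) overlapped none of those in Dex, which began at 9.61%, 10.6% and 9.72%. The intervals of no_Dex replicates 2 and 3 reached up to 14.4% and 11.9% and overlapped all 3. This share was described and not tested, and the difference between the responses of the paralogs was not tested either.

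AS1 (chr2:15781232-15783480, minus strand), the MYB repressor of KNOX genes in leaves, was the member with the largest change among those called. It had 24.9, 31.0 and 29.0 CPM in no_Dex and 17.5, 19.9 and 22.5 CPM in Dex. The highest Dex library stayed below the lowest no_Dex library. AS1 fell by 0.50 on the log2 scale (SE 0.11, 95% interval -0.76 to -0.25; adjusted p by edgeR = 0.0212), a 1.42-fold lower level. Dropping no_Dex replicate 2, no_Dex replicate 3 or Dex replicate 2 ended the call of AS1 (adjusted p by edgeR = 0.0938, 0.0810 and 0.0663), with log2 fold changes of -0.43, -0.49 and -0.50. The call was kept without Dex replicate 1 (-0.42, adjusted p by edgeR = 0.0126).

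In TAIR10.1, 330 of the 1920 exonic bases of AS1 are also exonic in ACT1, an actin gene on the opposite strand. ACT1 had 35.0, 37.6 and 35.1 CPM in no_Dex and 40.4, 42.6 and 47.9 CPM in Dex, and rose by 0.28 on the log2 scale (SE 0.07; adjusted p by edgeR = 0.0401), the opposite direction to AS1. Since the libraries were not stranded, pairs from shared bases cannot be assigned to either gene. The counted AS1 model has 1490 bases, and whether it includes the shared bases was not checked. The ratio of AS1 to the summed class I KNOX level, both per length, was 0.758, 0.840 and 0.830 in no_Dex and 0.451, 0.635 and 0.653 in Dex. These ratios did not overlap between groups, and they follow from the lower AS1 values beside KNOX sums that overlapped. AS2, the partner of AS1, had 63, 40 and 69 pairs in no_Dex and 43, 40 and 58 in Dex and was not called (log2 fold change -0.25, SE 0.24, 95% interval -0.80 to 0.31; adjusted p by edgeR = 0.540).

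**Figure D4:**
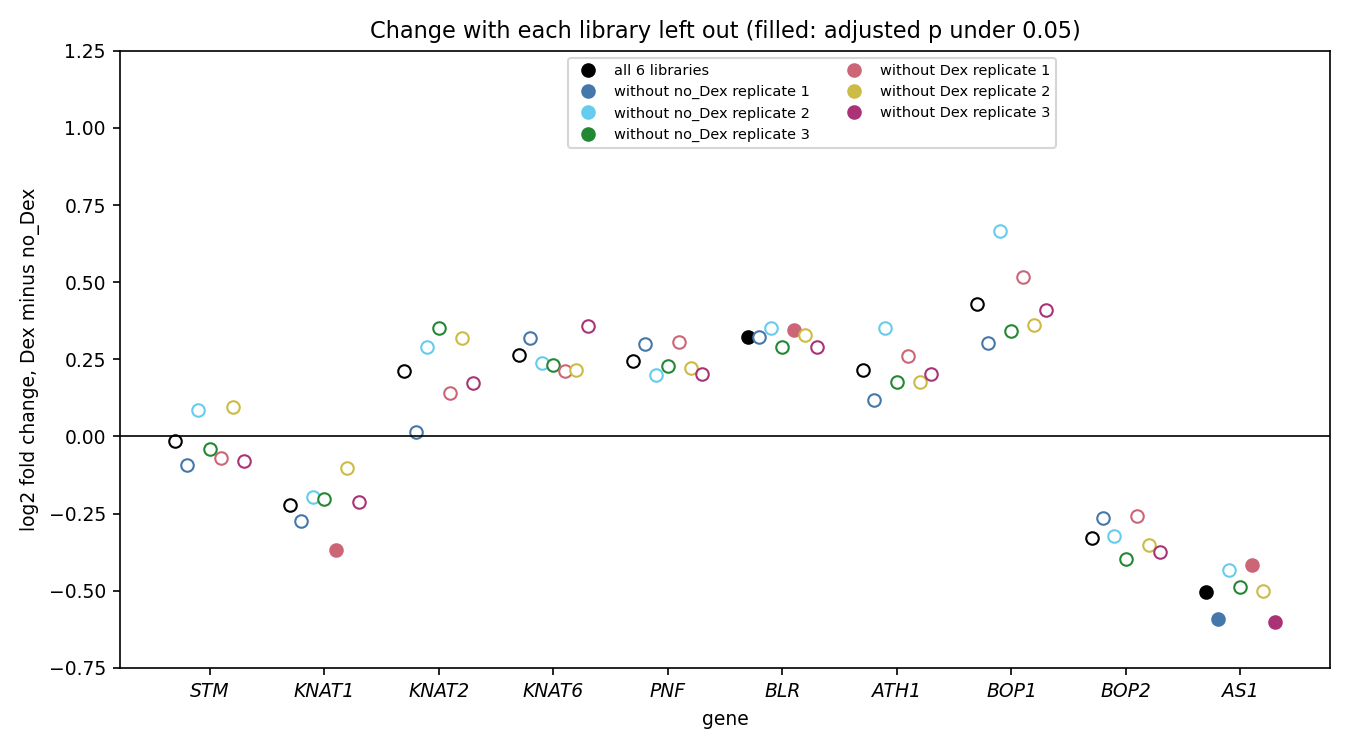
Log2 fold change of each gene with all 6 libraries (black) and with each library left out in turn (colours), filled where the adjusted p is under 0.05. BLR stays between 0.29 and 0.35 and AS1 between -0.60 and -0.42, while STM takes either sign and KNAT1 is filled only without Dex replicate 1.

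The upstream sequences of the 2 called genes are printed because CUC2 is a NAC factor and the core of NAC sites is CGTG. The windows are the 250 bases before the annotated start of the gene in TAIR10.1, 5′ to 3′ on the strand of the gene, at chr5:395317-395566 (plus strand) for BLR and chr2:15783481-15783730 (minus strand) for AS1. Capitals mark CGTG and its reverse complement CACG.
BLR: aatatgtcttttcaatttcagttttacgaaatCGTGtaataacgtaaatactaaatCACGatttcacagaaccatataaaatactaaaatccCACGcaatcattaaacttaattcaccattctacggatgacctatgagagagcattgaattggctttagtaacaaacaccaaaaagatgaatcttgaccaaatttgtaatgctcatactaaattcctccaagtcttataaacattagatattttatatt
AS1: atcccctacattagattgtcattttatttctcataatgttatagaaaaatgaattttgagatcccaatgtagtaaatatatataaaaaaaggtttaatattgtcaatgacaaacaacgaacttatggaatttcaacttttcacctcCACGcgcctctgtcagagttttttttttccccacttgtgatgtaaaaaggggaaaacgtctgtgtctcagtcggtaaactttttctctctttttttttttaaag
BLR held 3 cores, which began 158, 194 and 218 bases before the start, and AS1 held 1 at 104 bases. CGTG or CACG was present in 5 of the 10 windows (KNAT2, PNF, BLR, ATH1 and AS1) and in 45.6% of the windows of 26699 protein-coding genes. The G-box CACGTG, which contains both forms of the core, was in none of the 10 and in 6.58% of all windows. TGACAG, a core bound by KNOX and BELL proteins, or its reverse complement was in the window of AS1 alone, where it does not overlap the NAC core, and in 5.86% of all windows. Matches are descriptions of letters in these windows and show no binding.

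The genes whose profiles over the 6 libraries were most like those of the called members were found by the root mean square difference of mean-centred log2 CPM, among 8279 genes with a symbol. For BLR these were FACT (0.022), an acyltransferase, MED31 (0.028), a Mediator subunit, and HAL3A (0.028), an enzyme of coenzyme A synthesis. For AS1 they were GulLO3 (0.037), an oxidase, GHR1 (0.043), a receptor-like kinase of guard cells, and CNGC12 (0.052), a cyclic nucleotide-gated channel. Likeness over 6 values in 2 groups includes the difference between the groups itself.

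Of 61 related genes in 7 lists, 55 were tested, 3 rose, 6 fell and 46 were not called, with a median log2 fold change of -0.07. The 9 called are 16.4% of the 55, near the 14.4% of all tested genes, with 5.45% higher against 5.99% and 10.9% lower against 8.4%, so the single lists are given as descriptions. The numbers moved with the libraries, to 6 higher and 9 lower without Dex replicate 1 and to 1 higher and 4 lower without no_Dex replicate 1 or 2. Counts over all tested genes moved the same way, from 1279 higher and 1792 lower of 21344 with all libraries. They were 2339 and 2726 of 21452 without Dex replicate 1. Without no_Dex replicate 1 they were 688 and 1007 of 21445, and without no_Dex replicate 2 they were 519 and 785 of 21450.

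**Figure D5:**
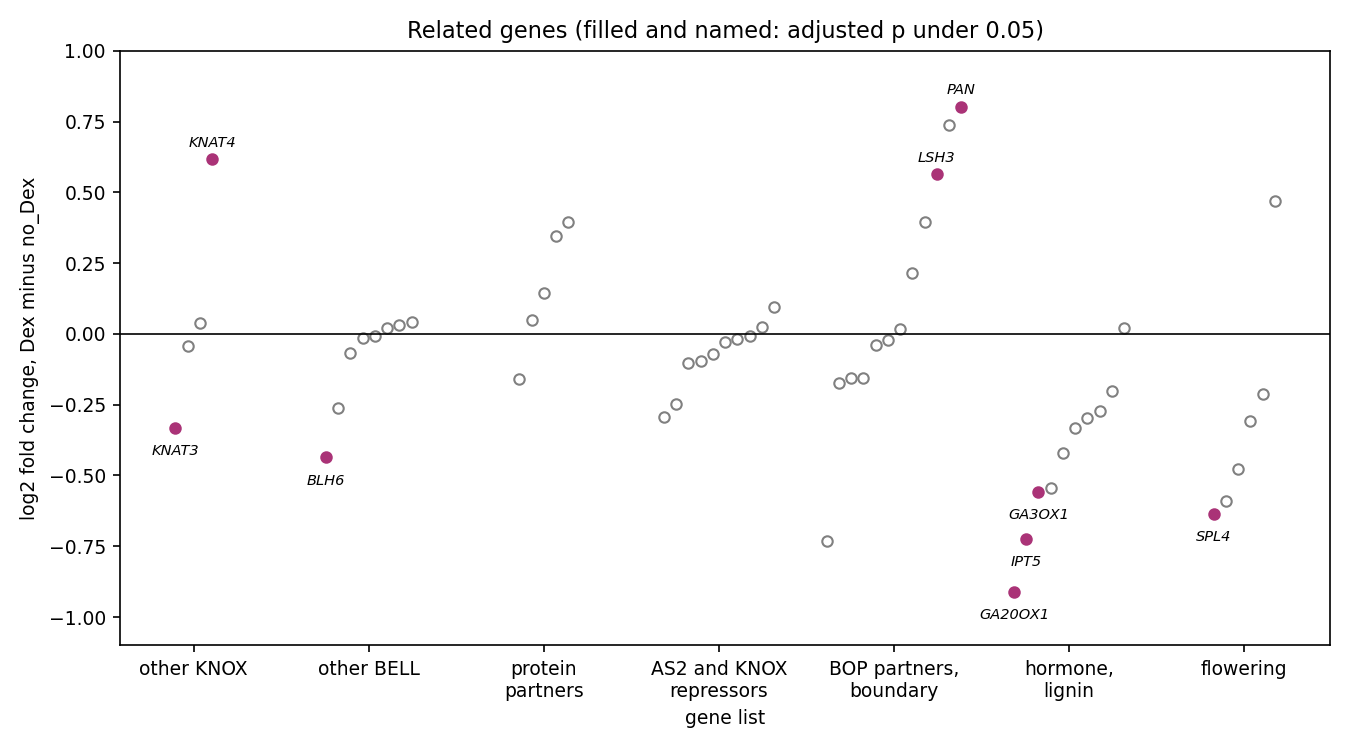
Log2 fold change, Dex minus no_Dex, of the 55 tested genes in 7 lists, with 1 point per gene, filled and named where the edgeR adjusted p is under 0.05. KNAT4 (0.62) and KNAT3 (-0.33) lie on opposite sides of 0, and the 3 called hormone genes all lie below it.

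Among the other KNOX genes, 1 of 4 tested rose and 1 fell. KNAT4 and KNAT3 are class II KNOX genes, which are expressed in differentiating tissue and act in part against class I genes. KNAT4 had 20.7, 22.3 and 21.8 CPM in no_Dex and 33.4, 32.7 and 33.3 CPM in Dex. It rose by 0.62 on the log2 scale (SE 0.06; adjusted p by edgeR = 0.000624). KNAT3 had 36.4, 37.2 and 37.7 CPM in no_Dex and 29.9, 29.3 and 29.1 CPM in Dex, and fell by 0.33 (SE 0.05; adjusted p by edgeR = 0.00484). Both were called in every one of the 15 alternative fits, including those without 1 library, unlike BLR and AS1. KNAT5 (log2 fold change 0.04) and KNAT7 (-0.04) were not called, and KNATM, with at most 10 pairs per library, was not tested.

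Of 8 tested BELL genes outside the members, BLH6, which acts with KNAT7 on secondary walls, fell and 7 were not called. BLH6 had 32.2, 29.6 and 31.7 CPM in no_Dex and 23.0, 22.3 and 23.7 CPM in Dex, so that its log2 fold change was -0.44 (SE 0.06; adjusted p by edgeR = 0.00313), and it was called in all 15 alternative fits. The other 7 ranged from -0.26 (BLH3) to 0.04 (BEL1). None of 5 tested protein partners of KNOX and BELL proteins was called by edgeR, DESeq2 or limma-voom, and 1 (OFP1) had an unadjusted p under 0.05. None of 10 KNOX repressors was called by the same tools, with 0 at an unadjusted p under 0.05 in edgeR and 1 in each of the others. They included AS2, YAB1, YAB3 and the Polycomb genes CLF, SWN, FIE and EMF2, and had log2 fold changes from -0.29 (YAB3) to 0.09 (LHP1), with a median of -0.05.

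Of 12 BOP partners and boundary genes, 2 rose and none fell. PAN, a TGA factor that interacts with BOP proteins in flowers, had 2.12, 2.65 and 2.88 CPM in no_Dex and 3.93, 5.38 and 4.06 CPM in Dex. It rose by 0.80 (SE 0.18; adjusted p by edgeR = 0.0214), and fits that left out no_Dex replicate 1, no_Dex replicate 2 or Dex replicate 2 did not call it (adjusted p by edgeR = 0.0787, 0.0759 and 0.0662) at log2 fold changes of 0.68, 0.83 and 0.65. LSH3, an ALOG gene of organ boundaries, rose by 0.56 from 3.32, 3.32 and 3.26 CPM to 4.61, 4.74 and 5.31 CPM (SE 0.11; adjusted p by edgeR = 0.0155). Its call did not survive the loss of any 1 no_Dex library (0.0542, 0.0627 and 0.0612), at log2 fold changes of 0.57, 0.57 and 0.55. CUC1, CUC2, whose pairs can come from the transgene or the endogenous gene, and CUC3 were not called (log2 fold changes -0.16, 0.02 and -0.17), nor was PUCHI (-0.73, SE 0.25; adjusted p by edgeR = 0.0950).

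Of 10 hormone and lignin genes known to act under KNOX proteins, 3 fell and the other 7 passed in neither direction, with a median log2 fold change of -0.38 against 0.0079 for all tested genes. IPT5, a cytokinin synthesis gene, had 16.7, 15.4 and 16.5 CPM in no_Dex and 10.8, 9.74 and 8.87 CPM in Dex, and fell by 0.72 (SE 0.09; adjusted p by edgeR = 0.00202) in this and all 15 alternative fits. GA3OX1, a gibberellin synthesis gene, had 11.7, 9.65 and 11.9 CPM in no_Dex and 6.78, 7.37 and 8.48 CPM in Dex, and fell by 0.56 (SE 0.12; adjusted p by edgeR = 0.0193). GA3OX1 was not called where no_Dex replicate 1, no_Dex replicate 3 or Dex replicate 2 was dropped (adjusted p by edgeR = 0.0763, 0.0797 and 0.0658), at log2 fold changes of -0.52, -0.51 and -0.54. GA20OX1, which KNOX proteins repress, had 22, 20 and 24 pairs in no_Dex and 13, 11 and 10 in Dex. It fell by 0.91 (SE 0.24; adjusted p by edgeR = 0.0401), a call lost with the replicate block (adjusted p by edgeR = 0.0693) and without no_Dex replicate 1, 2 or 3 (0.101, 0.0972 and 0.127) or Dex replicate 2 or 3 (0.102 and 0.114), while its log2 fold change stayed between -0.98 and -0.83. IPT7, the cytokinin gene that STM induces, was not called (-0.42, SE 0.27; adjusted p by edgeR = 0.334), nor was GA2OX2, a gibberellin-degrading gene (0.02, SE 0.13; adjusted p by edgeR = 0.933).

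Of 6 tested flowering genes, with a median log2 fold change of -0.39, 1 fell and 5 were not called. SPL4, which acts downstream of BLR and PNF, fell by 0.63 on the log2 scale (SE 0.12; adjusted p by edgeR = 0.0133) from 4.07, 4.45 and 3.83 CPM to 2.68, 2.67 and 2.60 CPM, and was not called when no_Dex replicate 2 was dropped (0.0616, log2 fold change -0.58). FLC, which ATH1 promotes, had 216, 211 and 250 pairs in no_Dex and 417, 277 and 224 in Dex, with Dex replicate 1 far above the rest, and was not called (0.47, SE 0.19; adjusted p by edgeR = 0.145). LFY and AP1 had at most 4 pairs in any library and were not tested.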

How the data were processed

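RNA of 6 seedling libraries was sequenced as unstranded pairs after polyA selection, per the labels' protocols. The submitters' processing notes name Bowtie2, without a version, and the TAIR10 genome. Each deposited file holds raw counts, 1 per gene model, of properly paired reads on opposite strands, with equally good hits removed, beside counts of single reads and, of the unit other, model lengths in bases, per the file headers. Pairs counted were 95.2% to 95.6% of those read, with a median of 513 per tested gene and library.

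All else was computed here. Counts were filtered (minimum count 10, total 15) and TMM-scaled, and Dex and no_Dex were compared in edgeR 4.0.16 (R 4.3.3; quasi-likelihood F test, two-sided). A gene was called where its p, adjusted over 21344 tested genes after Benjamini and Hochberg, was under 0.05. CPM use TMM-scaled library sizes. SE was derived from the F statistic (size of the log2 fold change over root F), and intervals (95%) use the fit's total degrees of freedom (prior and residual) and are not adjusted. The p-values measure the spread between these libraries, which the series calls biological replicates. Positions and sequences are from RefSeq's TAIR10.1 annotation, whose nuclear chromosomes are those of TAIR10. No member but KNAT6 had a model of the length of a TAIR10.1 transcript. The test was tested on simulated data.

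Members and lists were chosen with earlier results of these data known. Named genes are the members, every called gene of the lists, and the 3 genes most like each called member; a few other list genes were named after their values were seen. Both groups are numbered 1 to 3 without a stated meaning. Same-numbered libraries deviated together, weakly, from their group means (correlations of 0.171, 0.119 and 0.125, and at most 0.0177 for other pairs). Deviations sum to 0 within a group, so the low values of other pairs are not separate evidence that the numbers pair the libraries. The main fit has no such pairing, and a fit with the number as a block was an alternative. The block fit called 1604 genes higher and 2146 lower, against 1279 and 1792 in the main fit. Other alternatives were DESeq2 1.42.0 (size factors, Wald test), limma 3.58.1 (voom), 2 other filters, single reads, length and GC offsets, and leaving out each library. No 2 replicates agreed within sampling noise.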

Additional observations from a re-analysis of the deposited data

How the results depend on the processing

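The number of members called was 1 higher and 1 lower in 8 fits on all 6 libraries: the replicate block, single reads, length and GC offsets, limma-voom, the Wald test of DESeq2, its size factors, no filter, and a filter of 1 CPM in every library. With the replicate block and length and GC offsets together, 2 members, 5 related genes and 1931 of all genes were higher. The replicate block alone ended no call of a member and, of the related genes named as called, that of GA20OX1 (log2 fold change -0.91, adjusted p by edgeR = 0.0693). GA20OX1 was also lost with no filter and by the DESeq2 Wald test. Leaving out 1 library in turn gave 0 to 1 members higher, 0 to 2 lower, 1 to 6 related genes higher and 4 to 9 lower, 519 to 2339 of all genes higher and 785 to 2726 lower. The lowest of these counts over all genes came without no_Dex replicate 2 and the highest without Dex replicate 1. The causes were not tested. STM, never called, ranged from -0.0939 to 0.0956 with 1 library left out and changed sign to 0.0862 without no_Dex replicate 2 and 0.0956 without Dex replicate 2. The directions of the other 9 members held in every alternative run that tested them. The filter of 1 CPM in every library left BOP1 untested. With 5 libraries fewer samples enter each test. BOP1, KNAT2 and PNF had 26 to 78 pairs per library; in no_Dex their spread was 26.5%, 25.5% and 7.20%, against 17.96%, 12.98% and 12.5% from counting.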
